A study of Homo sapiens with 6 samples.

Results

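The aminoacyl-tRNA synthetases are the enzymes that join each amino acid to its transfer RNA. They were selected here by gene symbol: every symbol made of 1 amino acid letter followed by ARS, with or without a final 1, 2 or 3, together with EPRS1, FARSA and FARSB. The rule found 38 of the 28265 gene symbols in the count tables, and all 38 were among the 14315 genes that passed the low-count filter and were tested. Of these, 21 encode cytosolic enzymes and 17, marked by the suffix 2, encode the separate mitochondrial enzymes.

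The data are 6 RNA-seq libraries of LN229, a human glioblastoma cell line in long-standing laboratory use, grown in DMEM with fetal bovine serum. The 3 control libraries have the genotype label WT, and NC in their titles, an abbreviation that no label spells out. The other 3 are labelled TRIM25 knockdown, and the series design gives a short hairpin RNA (shTRIM25) as the means. Separate cultures, hairpins or clones are not mentioned for any library, so the p-values given here cover only the variation among these 6 libraries, which may be technical. TRIM25 is an E3 ubiquitin ligase.

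A synthetase activates its amino acid with ATP and transfers it to the matching transfer RNA, so the set of synthetases fixes which amino acid each codon specifies. All of these genes are nuclear: most amino acids have one gene for the cytosol and another, numbered 2, whose product is imported into mitochondria. When transfer RNAs are left uncharged, the kinase GCN2 (EIF2AK4) phosphorylates the initiation factor eIF2, which raises translation of the transcription factor ATF4. ATF4 in turn is known to induce amino acid transporters, amino acid synthesis enzymes and many of the cytosolic synthetases, through promoter sites called C/EBP-ATF response elements (CARE).

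The targeted gene went against its label. Control libraries had 561, 493 and 563 TRIM25 counts, and labelled knockdown libraries 964, 905 and 1443. In CPM, the count as a rate of the library size scaled by TMM (trimmed mean of M values), this was 35.5 ± 0.243 against 82.9 ± 4.84 (mean ± SD, n = 3), a log2 fold change of 1.22 ± 0.07 (SE; edgeR quasi-likelihood test, adjusted p = 3.23e-09). The groups are therefore called control and labelled knockdown throughout, and every direction is labelled knockdown relative to control, without a claim about TRIM25 loss. Whether the group labels were exchanged cannot be told from these libraries, and an exchange would turn the sign of every difference given here.

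Library totals ranged from 11349865 to 16404725 counts, and the first principal component, with 55.5% of the variance, separated the groups. Labelled knockdown replicate 1 stood apart from the other 5 libraries on the second component. The glioblastoma-line markers VIM, CD44, NES, EGFR and SOX2 were expressed, SOX2 and OLIG2 at lower levels in the labelled knockdown libraries (-0.66 and -0.67, both called) and NES at higher levels (0.27, called), whereas GFAP did not exceed 8 counts in any library and CHI3L1 did not exceed 2. Of other cell types' defining markers, AIF1, KRT5 and KRT19 were at 0 and PTPRC did not exceed 9 counts. The summed level of the 5 immune markers was 44.6 to 47.1 CPM in control and 57.7 to 72.0 CPM in labelled knockdown libraries, led by CD68, while the 3 oligodendrocyte markers summed to 611 to 641 and 526 to 556 CPM. The 4 neuronal markers summed to 236 to 247 and 206 to 229.7 CPM, and the 8 glioblastoma-line markers to 4810 to 5078 and 4438 to 4773 CPM, both lower without overlap. The part of these markers in the results below was not tested.

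The promoters of the synthetase genes were searched first for the CARE core, TGATGNAA or its reverse complement TTNCATCA. RefSeq promoter windows (GRCh38.p14, 250 bases before to 50 bases after the first listed start) matched 30 of the 38 genes by symbol. AARS2, LARS1, TARS3, VARS1, VARS2 and YARS1 were among those not matched. The core was found on either strand in 7 of the 30 windows (23.3%), against 3.67% of all 27305 promoter windows and 1.76% of the 10989 windows of tested genes. Of the 7, 6 belong to cytosolic enzymes (AARS1, CARS1, IARS1, MARS1, NARS1 and TARS1) and 1 to a mitochondrial one (YARS2). They are shown because ATF4 is the factor most often tied to synthetase transcription. Each line gives 30 bases of the gene's own strand, 5′ to 3′, with the core in capitals:
AARS1, chr16:70289675-70289704, minus strand, alanine: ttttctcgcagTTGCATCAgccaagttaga
CARS1, chr11:3057407-3057436, minus strand, cysteine: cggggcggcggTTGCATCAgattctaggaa
IARS1, chr9:92293692-92293721, minus strand, isoleucine: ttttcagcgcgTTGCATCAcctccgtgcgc
MARS1, chr12:57488053-57488082, plus strand, methionine: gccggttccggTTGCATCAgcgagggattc
NARS1, chr18:57621804-57621833, minus strand, asparagine: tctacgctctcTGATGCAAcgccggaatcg
TARS1, chr5:33440956-33440985, plus strand, threonine: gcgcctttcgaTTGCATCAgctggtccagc
YARS2, chr12:32756076-32756105, minus strand, mitochondrial tyrosine: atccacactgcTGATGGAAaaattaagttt

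The 6 cytosolic cores carry the same 8 letters, TTGCATCA, on one strand or the other, and YARS2 differs. In AARS1 the core begins 187 bases before the listed start and in YARS2 197 bases before it, whereas in the other 5 genes it begins between 13 bases before and 14 bases after the start. A match is a description of the letters, not evidence that a factor was bound in these cells. Windows were also searched for the E-box CACGTG bound by MYC-type factors, found in 4 of 30 (CARS2, EARS2, IARS1 and MARS2; 13.3%, against 10.1% of tested genes' windows). The ETS-type motif CCGGAAGT was found in 7 of 30 (CARS1, EARS2, HARS1, HARS2, NARS1, PARS2 and WARS1; 23.3%, against 8.58%). The NRF1 palindrome, the binding motif of nuclear respiratory factor NRF1, was found in 1 of 30 (MARS2; 3.33%, against 2.27%). IARS1 holds both the CARE core and the E-box, and CARS1 and NARS1 hold both the CARE core and the ETS-type motif.

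Expression of the synthetases was compared between the groups to ask whether the charging enzymes moved together, and whether the cytosolic and mitochondrial sets differed. Of the 38 genes, 8 were called higher in the labelled knockdown libraries (21.1%) and 0 were called lower (adjusted p under 0.05 in the edgeR quasi-likelihood test, with Benjamini-Hochberg adjustment over all genes tested). Over all tested genes 12.2% were called higher and 11.0% lower. An unadjusted p under 0.05 was reached by 17 of the 38, 15 higher and 2 lower, and by 5143 of all 14315 genes tested. DESeq2 and limma-voom also called 0 lower. Upper-quartile scaling factors called 7 higher and 1 lower, and removal of trends with length and GC called 18 higher and 1 lower. Over all genes tested, the first setting called 1527 higher and 1811 lower, and the second 2161 higher and 2350 lower. The median log2 fold change of the 38 was 0.13, with 30 of 38 positive, against a median of -0.00 and 49.2% positive over all genes tested. In 19 of the 38 (50.0%) every labelled knockdown library was above every control library, against 18.3% of all genes tested. The 38 genes had a median level of 109 CPM and a median SE of 0.062. Over all genes tested these were 29.3 CPM and 0.087, so the shares compared here are not matched for level or precision. In 3, HARS2 and SARS2 among them, every one was below, against 19.0%. The called changes were small, from 1.12-fold to 1.35-fold.

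**Figure D1:**
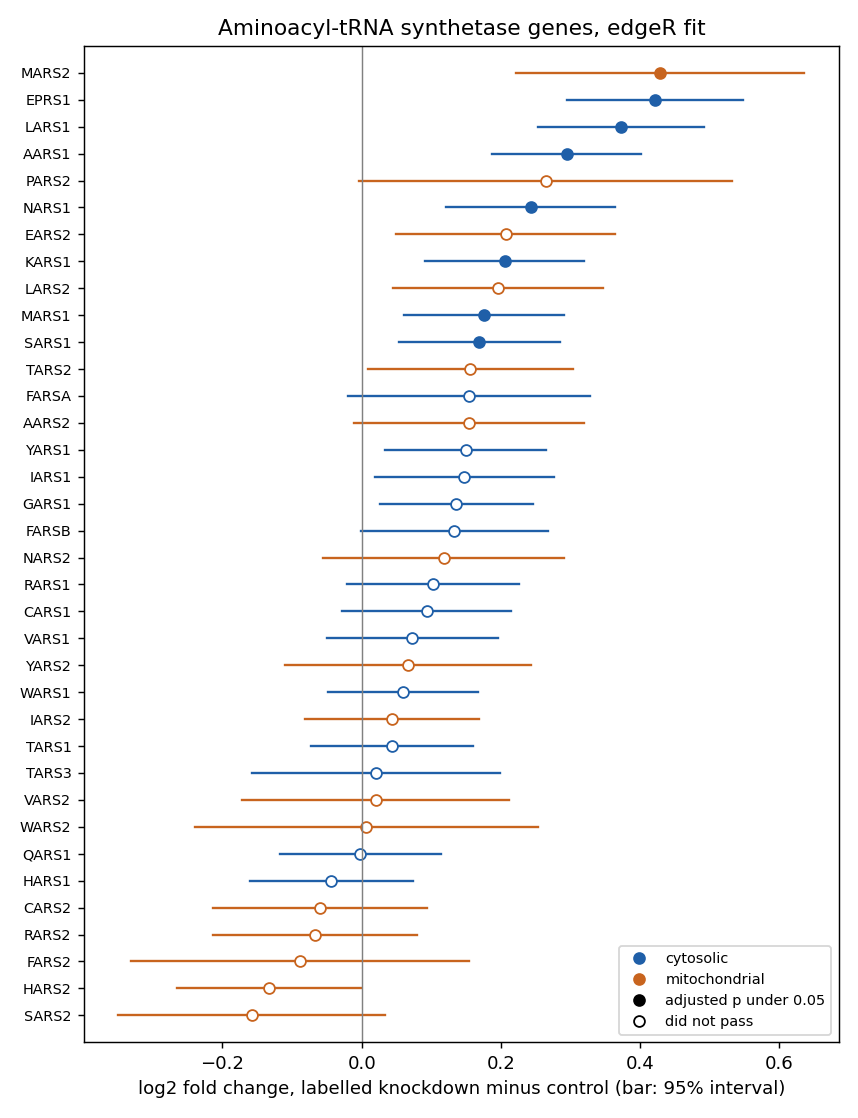
Log2 fold change (x axis, labelled knockdown minus control, 3 libraries each) of 36 of the 38 synthetase genes in order of size, with cytosolic genes in blue, mitochondrial genes in orange, called genes as filled points and bars for the 95% confidence interval. The 8 genes called higher run from 0.17 (SARS1) to 0.43 (MARS2), and 7 of the 36 points lie below 0, with 0 of them filled.

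Leucyl- and glutamyl-prolyl-tRNA synthetase had the largest log2 fold changes among the cytosolic enzymes. LARS1 charges leucine, one of the most frequent residues in proteins, and also acts as a leucine sensor for mTORC1. It measured 450.2, 426 and 417 CPM in the control libraries and 522, 565 and 587 CPM in the labelled knockdown libraries. Every labelled knockdown library lay above every control library. The means were 431 ± 17.1 and 558 ± 33.1 CPM, and LARS1 rose by 0.37 ± 0.06 on the log2 scale (1.29-fold, edgeR adjusted p = 0.000161). EPRS1 carries the glutamyl and prolyl enzymes on one polypeptide and is a core of the multisynthetase complex. It measured 273, 273 and 249 CPM in the controls and 335, 352 and 376 CPM in the labelled knockdown libraries, again with no overlap. The means were 265 ± 13.6 and 354 ± 20.7 CPM, and EPRS1 rose by 0.42 ± 0.06 (1.34-fold, edgeR adjusted p = 8.82e-05).

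AARS1, the alanine enzyme, which also clears mischarged serine and glycine from its transfer RNA, was the tightest of the called genes. It measured 302, 297 and 302 CPM in the controls and 371, 369.9 and 364 CPM in the labelled knockdown libraries. The spread within each group was small beside the distance between the groups, with SDs of 2.52 and 3.68 CPM around means of 300.3 and 368 CPM. AARS1 rose by 0.29 ± 0.05 (1.23-fold, edgeR adjusted p = 0.000543). NARS1, the asparagine enzyme, measured 249, 256 and 249 CPM in the controls and 277, 306 and 309 CPM in the labelled knockdown libraries. Labelled knockdown replicate 1 was the lowest of its group and still above all controls. NARS1 rose by 0.24 ± 0.06 (edgeR adjusted p = 0.00585), but without labelled knockdown replicate 2 its adjusted p was 0.0501.

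KARS1 charges lysine in both the cytosol and the mitochondria, from alternatively spliced transcripts of one gene that the table does not separate. It measured 220.1, 209 and 218 CPM in the controls and 246, 245 and 255 CPM in the labelled knockdown libraries, without overlap. KARS1 rose by 0.21 ± 0.05 (edgeR adjusted p = 0.0115), and leaving out control replicate 2 ended the call (adjusted p = 0.0889). KARS1 starts 108 bases from TERF2IP, a telomere-binding protein gene on the opposite strand (RefSeq starts), and their exons overlap by 176 bp in GENCODE v29. TERF2IP was also called higher, from 98.6 to 113 CPM (0.20 ± 0.06, edgeR adjusted p = 0.0216). The kit keeps strand, but the strand setting of the counting is not given in the sources used here, so reads of overlapping opposite-strand exons may be shared.

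MARS1, the cytosolic methionine enzyme, measured 244, 226 and 236 CPM in the controls and 265, 269.8 and 262 CPM in the labelled knockdown libraries. The groups did not overlap, and MARS1 rose by 0.18 ± 0.05 (edgeR adjusted p = 0.0274). Leaving out control replicate 2 (adjusted p = 0.162), control replicate 3 (0.0944) or labelled knockdown replicate 2 (0.126) ended that call. Its exons overlap by 355 bp with DDIT3, the stress factor CHOP, on the opposite strand, and by 519 bp with ARHGAP9. DDIT3 was at 58.3 CPM in both groups (-0.00, edgeR adjusted p = 0.992).

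SARS1, which charges serine and also supplies the seryl group from which selenocysteine is made, measured 201, 209.7 and 213 CPM in the controls and 239, 233 and 229 CPM in the labelled knockdown libraries. The groups did not overlap, and SARS1 rose by 0.17 (95% confidence interval 0.05 to 0.28, edgeR adjusted p = 0.0345), the smallest called difference. Its call was lost without any one control library (adjusted p = 0.101, 0.113 and 0.0784 without replicates 1, 2 and 3) and without labelled knockdown replicate 2 (0.117).

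MARS2, the mitochondrial methionine enzyme, was the only mitochondrial gene called and had the highest log2 fold change of the 8. It was also one of the least abundant synthetases, with 179, 150 and 183 counts in the controls and 169, 176 and 256 in the labelled knockdown libraries. Scaled for library size this was 11.2, 10.9 and 11.6 CPM against 14.1, 15.5 and 15.7 CPM, with no overlap. MARS2 rose by 0.43 ± 0.10 (1.35-fold, 95% confidence interval 0.22 to 0.64, edgeR adjusted p = 0.00469). MARS2, EPRS1, LARS1 and AARS1 kept their calls in all 15 other fits tried. The promoter stretch of MARS2 is shown because it holds both the NRF1 motif, tied to nuclear genes of mitochondrial proteins, and the E-box, within the 60 bases before its start (both motifs in capitals, NRF1 first):
MARS2, chr2:197705309-197705368, plus strand: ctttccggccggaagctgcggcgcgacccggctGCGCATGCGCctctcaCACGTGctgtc

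**Figure D2:**
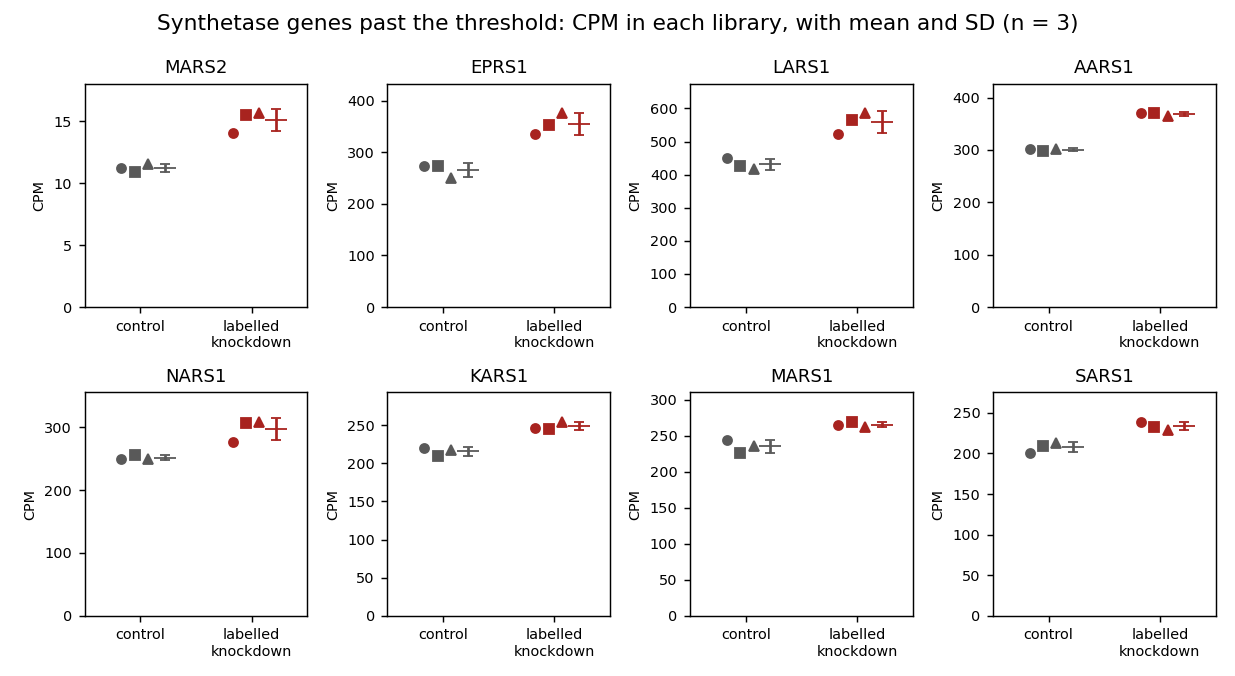
TMM-scaled CPM (y axes from 0) of the 8 called synthetase genes, with 1 marker per library (circle, square and triangle for replicates 1, 2 and 3) and the mean with SD to the right of each group of 3. In all 8 the lowest labelled knockdown library lies above the highest control library, most narrowly in MARS1, SARS1 and NARS1.

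Several of the most abundant synthetases were not called. WARS1, the tryptophan enzyme, which interferon also induces, had the highest level per length of any synthetase, with a mean deposited TPM of 413.0 over the 6 libraries. It measured 399, 388 and 378 CPM in the controls and 398, 408 and 408 CPM in the labelled knockdown libraries, and the groups met at 398 to 399 CPM (0.06 ± 0.05, edgeR adjusted p = 0.430). GARS1, the glycine enzyme of both cytosol and mitochondria, had 320.5, 321 and 321 CPM against 339, 361 and 357 CPM. Its groups did not overlap, but the difference missed the threshold (0.14 ± 0.05, edgeR adjusted p = 0.0691). QARS1, the glutamine enzyme of the multisynthetase complex, had 192, 187 and 196 CPM against 193, 191 and 190.2 CPM. Its difference was -0.00, with a 95% confidence interval of -0.12 to 0.11 on the log2 scale, so a difference of the size seen in LARS1 or EPRS1 lies outside the interval.

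The highest mitochondrial level per length was that of IARS2 (isoleucine), with a mean TPM of 166. IARS2 measured 209.6, 204 and 199.6 CPM in the controls and 197, 214 and 222 CPM in the labelled knockdown libraries, which overlapped (0.04, 95% confidence interval -0.08 to 0.17). HARS2 (histidine) measured 94.9, 89.9 and 94.6 CPM against 82.5, 84.0 and 88.3 CPM, with every labelled knockdown library below every control (-0.13 ± 0.06, edgeR adjusted p = 0.136). Levels per length of VARS1, VARS2, SARS1, FARSB and RARS2 were not ranked, because the gene length behind the deposited values was between 1.86 and 5.92 times that of the longest GENCODE v29 transcript.

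HARS2 shares its promoter with HARS1, its cytosolic counterpart, which is read in the opposite direction from a start 85 bases away. HARS1 was not called either (-0.04, edgeR adjusted p = 0.610). Exons of HARS1 and HARS2 overlap by 437 bp on opposite strands. The 84 bases between the starts are shown because they serve both genes and begin and end with the ETS-type motif, in capitals on each strand (CCGGAAGT and its reverse complement ACTTCCGG):
HARS1, chr5:140691371-140691454, minus strand: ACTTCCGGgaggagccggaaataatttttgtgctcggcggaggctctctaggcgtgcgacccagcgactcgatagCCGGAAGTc

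The uncalled genes nearest the threshold are given next, chosen after their values were seen. YARS1 (tyrosine, 0.15), EARS2 (mitochondrial glutamate, 0.21), LARS2 (mitochondrial leucine, 0.20) and IARS1 (isoleucine, 0.15) had edgeR adjusted p-values of 0.0576, 0.0536, 0.0569 and 0.0905. EARS2 measured 40.0, 36.7 and 37.3 CPM in the controls and 40.9, 44.6 and 46.0 CPM in the labelled knockdown libraries. LARS2 measured 37.8, 37.3 and 40.8 CPM against 44.3, 45.6 and 43.0 CPM. In both the labelled knockdown libraries were all higher than the controls. FARSA, a subunit of the cytosolic phenylalanine enzyme, had 1 high library: it measured 91.7, 94.4 and 94.2 CPM in the controls and 121, 98.7 and 92.4 CPM in labelled knockdown replicates 1, 2 and 3 (0.15 ± 0.08, edgeR adjusted p = 0.188).

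By compartment, 7 of 21 cytosolic genes (33.3%) and 1 of 17 mitochondrial genes (5.88%) were called higher, against 12.2% of all genes tested. The cytosolic share lay above that of all genes, and the mitochondrial share rests on 1 gene. Without labelled knockdown replicate 1, 10 cytosolic and 4 mitochondrial genes were called higher, beside 2622 of all 14616 genes tested in that fit. With length and GC trends removed the numbers were 13 and 5, beside 2161 of all 14315 genes. The median log2 fold change was 0.14 for the cytosolic genes, 18 of which were positive, and 0.07 for the mitochondrial genes, 12 of which were positive. Groups did not overlap and labelled knockdown was higher in 13 cytosolic (61.9%) and 6 mitochondrial genes (35.3%), against 18.3% of all genes tested. The 2 sets differ in abundance and precision: the median level was 221 CPM in the cytosolic and 34.1 CPM in the mitochondrial set, and the median SE of the log2 fold change was 0.06 and 0.08. With log2 fold changes corrected for each library's trend with gene length, the medians were 0.13 for the cytosolic and 0.12 for the mitochondrial genes, so the difference between the class medians was not kept under that setting. Over the 13675 tested genes with both a length and a GC value, longer genes had higher fold changes (Spearman rho 0.30, a description only). Among the 38 synthetases rho was 0.17.

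Summed over all 38 genes, synthetase reads made up 0.517%, 0.511% and 0.509% of the control libraries and 0.554%, 0.571% and 0.574% of the labelled knockdown libraries. The cytosolic genes took 0.444%, 0.439% and 0.436% against 0.481%, 0.495% and 0.497%. Both sums were higher in every labelled knockdown library than in any control. The mitochondrial genes took 0.0739%, 0.0720% and 0.0729% against 0.0729%, 0.0759% and 0.0768%, which overlapped. In CPM the summed level went from 5108 to 5683, and LARS1, EPRS1 and AARS1 together made up 49.4% of that difference, the 8 called genes 73.6%, and all mitochondrial genes 4.86%.

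The mitochondrial share of synthetase reads, a ratio inside each library that does not depend on library scaling, was 14.3%, 14.1% and 14.3% in the controls and 13.2%, 13.3% and 13.4% in the labelled knockdown libraries. The means were 14.2% ± 0.135 and 13.3% ± 0.105 (SD, n = 3), a difference of -0.95 percentage points, without overlap. On summed deposited TPM, which weights each gene by length, the means were 13.5% and 12.7%, also without overlap. That sum includes VARS1, VARS2, SARS1, FARSB and RARS2, whose levels per length were not ranked above because of their deposited lengths. No test was made of this share, since the genes summed in it are the ones tested singly above.

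**Figure D3:**
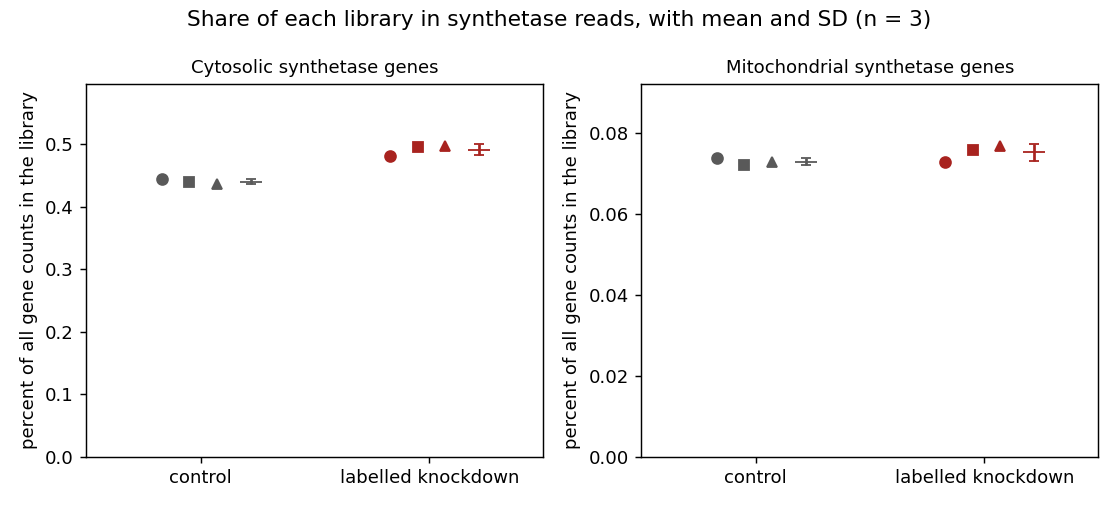
Counts of the cytosolic (left) and mitochondrial (right) synthetase genes as a percentage of all gene counts in each library, with 1 marker per library and the mean with SD (n = 3); both axes start at 0 and differ in scale. The cytosolic sum is higher in all 3 labelled knockdown libraries, whereas the mitochondrial sums of the groups overlap.

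Pairs that charge the same amino acid in the 2 compartments were compared by the ratio of cytosolic to mitochondrial counts within each library, over 19 pairs. The ratio was higher in every labelled knockdown library than in any control for 6 pairs, lower for 3, and overlapping for 10. Of all single genes tested, 18.3% separated upward in this way and 19.0% downward. The share for ratios of other gene pairs was not computed. The serine ratio SARS1 to SARS2 had the widest upward difference, at 11.8, 11.8 and 11.0 in the controls and 14.5, 14.5 and 14.3 in the labelled knockdown libraries. SARS2 itself measured 17.0, 17.8 and 19.3 CPM against 16.6, 16.1 and 15.9 CPM (-0.16 ± 0.09, edgeR adjusted p = 0.221), and its exons overlap by 349 bp with those of MRPS12 on the opposite strand. The glutamate ratio EPRS1 to EARS2 was 6.82, 7.42 and 6.68 against 8.18, 7.89 and 8.19. The mean log2 ratio differed by 0.32 for serine and 0.22 for glutamate. The other pairs with higher ratios were those of cysteine, isoleucine, asparagine and arginine. Some genes stand in 2 pairs: EPRS1 with EARS2 and PARS2, FARS2 with FARSA and FARSB, and TARS2 with TARS1 and TARS3.

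The methionine pair, in which both genes were called, went the other way: the ratio of MARS1 to MARS2 was 21.7, 20.8 and 20.4 in the controls and 18.9, 17.4 and 16.7 in the labelled knockdown libraries. The ratio of TARS3 to TARS2 was also lower without overlap (-0.14 on the log2 scale). The leucine, alanine and proline pairs, in which the cytosolic partner was called, overlapped between the groups. AARS2 measured 34.8, 32.0 and 31.4 CPM in the controls and 38.9, 34.2 and 36.2 CPM in the labelled knockdown libraries (0.15 ± 0.08, edgeR adjusted p = 0.167). PARS2 measured 5.91, 5.80 and 6.38 CPM against 7.41, 6.80 and 7.48 CPM (0.26 ± 0.13, edgeR adjusted p = 0.144). NARS2, the partner of NARS1, measured 25.1, 26.2 and 26.5 CPM against 26.5, 26.9 and 30.5 CPM (0.12 ± 0.08, edgeR adjusted p = 0.321). In these 3 mitochondrial genes the difference was positive but did not pass the test.

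**Figure D4:**
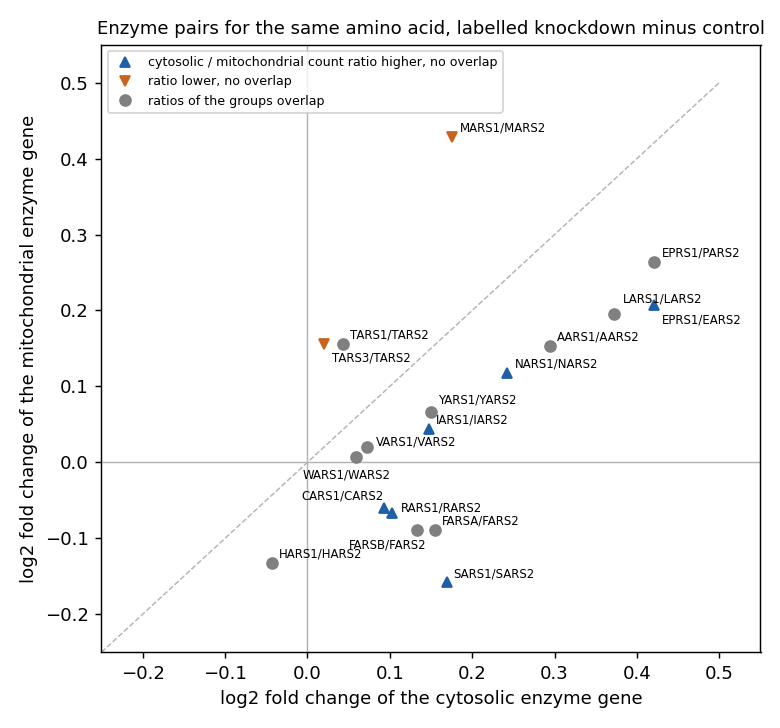
Log2 fold change of the mitochondrial gene (y axis) against that of the cytosolic gene (x axis) for 18 of the 19 pairs charging the same amino acid, labelled knockdown minus control, with the dashed line marking equal change. Marker shapes give the within-library count ratio of cytosolic to mitochondrial gene: higher without overlap in 6 pairs, all below the line, and lower without overlap in 2 of the pairs drawn, both above it (MARS1/MARS2 and TARS3/TARS2).

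Other groupings of the enzymes, compiled from general knowledge, are given as counts, to be read against the 12.2% of all tested genes called higher and 11.0% called lower. The synthetases fall into 2 structural classes with unrelated catalytic folds. In class I 4 of 19 were called (EPRS1, LARS1, MARS1 and MARS2), and in class II 4 of 19 (AARS1, KARS1, NARS1 and SARS1). EPRS1 was counted in class I only, so the class II count leaves out its prolyl enzyme. Of the 8 enzyme genes of the multisynthetase complex, a cytosolic particle that holds several synthetases, 4 were called (EPRS1, KARS1, LARS1 and MARS1; median 0.16). Of the 13 cytosolic genes outside it 3 were called (median 0.13). Its scaffold genes AIMP1, AIMP2 and EEF1E1 had differences of 0.11 ± 0.07, 0.06 ± 0.07 and -0.03 ± 0.11, and 0 of these 3 were called by edgeR, DESeq2 or limma-voom or reached an unadjusted p under 0.05. Of 12 synthetases known as ATF4 targets 6 were called (AARS1, EPRS1, LARS1, MARS1, NARS1 and SARS1; median 0.16), and all 12 differences were positive. Of the 9 other cytosolic genes 1 was called (KARS1; median 0.07). The 12 listed genes had a median level of 280.0 CPM, against 122.8 CPM for the 9 others, and a longer median gene length. These 2 sets are therefore not matched for level or length, and the list was chosen with earlier results of these data known. Whether the contrast between them is tied to ATF4 was not tested. Of the 7 genes with a CARE core in the window 3 were called (AARS1, MARS1 and NARS1).

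The wider charging and elongation machinery is given beside the 23.3% of all tested genes called in either direction. Among 15 tested genes of transfer RNA maturation and export, 1 was called: XPOT, the nuclear exporter of transfer RNA. XPOT measured 308, 290.2 and 279.8 CPM in the controls and 338, 381 and 393 CPM in the labelled knockdown libraries, without overlap (0.34 ± 0.06, edgeR adjusted p = 0.000903). Of 6 cytosolic elongation factor genes 1 was called, EEF2, the translocation factor (0.19 ± 0.05, edgeR adjusted p = 0.0084), and its adjusted p was 0.0597 without control replicate 2. Of 14 mitochondrial translation factor genes, the initiation factor genes MTIF2 (0.22 ± 0.06) and MTIF3 (-0.29 ± 0.08) were called in opposite directions (edgeR adjusted p = 0.0228 and 0.0131). MTIF2 kept its call in 1 of the 6 fits that leave out a library, the one without labelled knockdown replicate 1, and reached an adjusted p of 0.0751 without control replicate 2. MTIF3 lost its call without control replicate 2 (0.0615), control replicate 3 (0.0522) or labelled knockdown replicate 2 (0.0757). Of 6 tested genes of trans-editing and selenocysteine synthesis edgeR called 0, with 0 at an unadjusted p under 0.05 and 0 called by DESeq2 or limma-voom.

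In the GCN2 and ATF4 pathway, 4 of 15 signalling genes were called, each of them higher (26.7%, against 12.2% of all tested genes called higher and 23.3% called in either direction), and the median was 0.04. ATF4 measured 654, 671 and 691 CPM in the controls and 778, 783 and 712 CPM in the labelled knockdown libraries, with labelled knockdown replicate 3 closest to the controls. Its difference was 0.17 ± 0.05 (edgeR adjusted p = 0.0248), and the call was lost without control replicate 1 (0.0712), 2 (0.101) or 3 (0.0532) and without labelled knockdown replicate 2 (0.141). PPP1R15A, which directs dephosphorylation of eIF2, rose by 0.32 ± 0.06 (edgeR adjusted p = 0.00132). GCN1, the activator of GCN2, was called (0.27 ± 0.07, edgeR adjusted p = 0.00886), but not without control replicate 2 (0.0698) or 3 (0.0693). IMPACT, which competes with GCN2 for GCN1, was called (0.29 ± 0.08, edgeR adjusted p = 0.0148), but not without control replicate 2 (0.103) or labelled knockdown replicates 2 (0.0743) or 3 (0.0625). The kinase gene EIF2AK4 had a difference of 0.00 ± 0.06. ATF4 is controlled largely in translation, which these mRNA levels do not measure.

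Of 19 listed ATF4 targets, in amino acid transport, amino acid synthesis and other functions, 11 were called higher and 2 lower. The median was 0.23, and 12.2% and 11.0% of all tested genes were called higher and lower. The amino acid transporters SLC7A5, the leucine importer (1011 ± 30.7 to 1318 ± 70.0 CPM), and SLC7A11, the cystine importer, rose by 0.38 ± 0.05 and 0.59 ± 0.08 (edgeR adjusted p = 4.39e-05 and 5.85e-05). ALDH1L2, of mitochondrial folate metabolism, and VLDLR, a lipoprotein receptor, rose by 0.67 ± 0.09 and 0.57 ± 0.08 (edgeR adjusted p = 5.74e-05 and 4.75e-05). These 4 kept their calls in all 6 fits that leave out a library. The 2 that fell were PSPH, which makes serine (-0.26), and ALDH18A1, which starts proline synthesis (-0.25). No test of a difference between this list and the synthetases was made.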

How the data were processed

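Total RNA of LN229 cells was sequenced in 6 libraries, 3 labelled WT and 3 labelled TRIM25 knockdown, with groups taken from the genotype label. Library preparation used a kit for stranded total RNA, according to the labels. FastQC, MultiQC, Trim Galore, HISAT2 and the build hg19 are named, without versions, per the submitters' processing notes. How reads were counted (program, strand setting, annotation) is not given in the sources used here. The authors deposited whole-number counts per gene symbol, per the file headers. The FPKM deposited by the authors served only to recover gene lengths. The TPM deposited by the authors served to rank levels per length and as a second measure of the mitochondrial share.

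The test of the counts was that of edgeR 4.0.16 in R 4.3.3, after filterByExpr by group, with TMM factors (0.995 to 1.00), glmQLFit and glmQLFTest with group as the only term, and Benjamini-Hochberg adjustment over 14315 genes, called under 0.05. Alternatives used limma 3.58.1 (voom), DESeq2 1.42.0, other scalings and filters, trends with length and GC, a replicate block, and each library left out. The fit was tested on simulated data with known fold changes. Genes are on another build in the reference, so coordinates are given only for RefSeq promoter windows. Exon overlaps come from GENCODE v29.

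The members and lists were chosen with earlier results of these data known. Named were every called synthetase, the 3 most abundant uncalled cytosolic and mitochondrial ones by mean TPM, both partners of a pair with a called gene, up to 4 called members per companion list by smallest p, ATF4, XPOT and TRIM25. Others were chosen after their values were seen: YARS1, IARS1, FARSA, HARS1, the scaffold genes, EIF2AK4, PSPH, ALDH18A1 and the neighbours of KARS1, MARS1 and SARS2.
Values of some genes taken by these rules are not reported here and not drawn, but are part of all counts and sums.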

Additional observations from a re-analysis of the deposited data

How the results depend on the processing

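No called synthetase, class median or share changed direction in any fit. Of the uncalled synthetases, 8 changed sign in at least 1 fit (FARSB, HARS1, IARS2, QARS1, TARS3, VARS1, VARS2 and WARS2). With upper-quartile factors 1527 genes were called higher and 1811 lower, in place of 1753 and 1577. Of 570 comparisons of a synthetase with another fit, 531 kept the gene's status, 25 gained a call and 14 lost one. Most of the 531 are uncalled genes that stayed uncalled. The 14 losses all fell on NARS1, KARS1, MARS1 and SARS1. The count of all genes called (3330) was 1826 to 4941 with 1 library left out and 1891 with a replicate block; synthetases called (8) were 5 to 14 and 5, cytosolic ones (7) 4 to 10 and 4, mitochondrial ones (1) 1 to 4, and companion genes (21) 10 to 30 and 13. The highest synthetase count came without labelled knockdown replicate 1. Same-numbered libraries did not deviate together (correlations -0.19, 0.01 and -0.22), so the block rests on a shared number only. Under it KARS1 (adjusted p = 0.0689), MARS1 (0.115) and SARS1 (0.137) lost their calls. With length trends removed, 2 mitochondrial genes were called and their median was 0.12 in place of 0.07. With length and GC trends removed, 19 synthetases (14 cytosolic, 5 mitochondrial) were called, 18 higher and 1 lower, beside 4511 of 14315 genes tested. The mitochondrial median was then 0.11. Upper-quartile factors called 7 synthetases higher and 1 lower. They put the cytosolic median at 0.12 in place of 0.14 and lost SARS1 (0.0606). Length adjustment also lost SARS1 (0.0613, with a deposited length 2.63 times that of the longest GENCODE v29 transcript). With 1 library left out the cytosolic median was 0.12 to 0.14 and the mitochondrial median 0.042 to 0.10. The mitochondrial share difference stayed between -1.03 and -0.896 points. DESeq2 called 2428 genes. The cause of these shifts was not tested. The median level was 34.1 CPM for the mitochondrial and 221 CPM for the cytosolic genes. In the simulated data 13999 of 14199 genes were left unchanged, whereas 3330 of 14315 genes were called in the 6 libraries. The Benjamini-Hochberg adjustment depends on the share of changed genes, which was not matched, so the next counts hold for the simulated data only. There, 1.2-fold changes were called in 12 of 50 genes at 10 to 60 CPM. At 90 to 450 CPM they were called in 36 of 50. For 1.5-fold changes the counts were 49 of 50 and 50 of 50. How far level accounts for the counts called in each compartment was not tested.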

Other observations

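Some antisense, divergent or intronic transcripts named after synthetase genes are described here, as a choice and not a full list. WARS2-AS1, antisense to the mitochondrial tryptophan enzyme gene, had 97, 70 and 106 counts in the controls and 58, 58 and 73 in the labelled knockdown libraries (-0.32 ± 0.15, edgeR quasi-likelihood test, adjusted p = 0.128). GARS-DT, transcribed away from GARS1, had 364, 317 and 325 counts against 245, 283 and 378 (0.05 ± 0.09, edgeR adjusted p = 0.751). Over the 6 libraries CARS-AS1 summed to 16 counts and FARSA-AS1 to 10, and WARS2-IT1 and LARS2-AS1 were at 0.

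Of the synthetase genes that start head to head with another gene, RARS2, the mitochondrial arginine enzyme, lies 148 bases from ORC3, a subunit of the origin recognition complex (RefSeq starts, GRCh38.p14). ORC3 was called higher, from 33.3 to 39.6 CPM (0.25, edgeR adjusted p = 0.0326). The neighbour of SARS2, the mitochondrial ribosomal protein gene MRPS12, had a difference of -0.27 ± 0.10 (edgeR adjusted p = 0.0548), and LYRM4, 57 bases from FARS2, one of -0.17 (adjusted p = 0.161).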
